A study of Mus musculus with 14 samples.

Results

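At 4 weeks of age the pubertal mouse mammary gland held its highest transcript ratios for a set of genes that take up glucose and turn it into fat, among them the acetyl-CoA carboxylases Acaca and Acacb, the glucose transporter Slc2a4 and the acyltransferases Gpam and Dgat2, and its lowest ratios for the ubiquitous glucose transporter Slc2a1 and the lymphatic growth factor Vegfc. These came out of a comparison of the 3 arrays of 4-week glands with the mean of the 3-, 5-, 6- and 7-week groups, each age weighted equally. Of 22690 probe sets on the array, 20380 name 1 gene and 16898 of those passed a filter on low signal; 119 of them had a peak at 4 weeks and 66 a trough. None of the genes named above was called in the direct comparison with 3 weeks. Without the 6-week arrays 2 peaks and 5 troughs were left, with Vegfc the only gene named above among them.

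The tissue was the whole inguinal mammary gland (number 4) of untreated female CD1 mice, an outbred stock, with the lymph nodes taken out, and all groups shared strain, sex and the lack of treatment. Affymetrix arrays numbered 14, with 2 for 5wk and 3 for each other age, told apart here by the letters A to C. Each array carried labelled RNA pooled from at least 3 mice, so the spread between arrays is one between pools; pools that shared a mouse, if any, are not named in the labels. Each value below is a ratio to the probe set's median across arrays, or a log2 difference of such ratios, so ages can be compared for a gene but genes cannot be ranked by level. The number of arrays limits the precision. Because the gland was taken whole, fewer cells of a type and less RNA per cell cannot be told apart in any of these values.

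As background, the virgin gland is a small ductal tree in a large pad of fat. With the onset of ovarian cycles, ducts grow out from the nipple through terminal end buds, and the adipocytes around them store triglyceride. Fat cells take up glucose through the insulin-regulated transporter GLUT4 (Slc2a4), turn it through pyruvate and citrate into acetyl-CoA, carboxylate this to malonyl-CoA, build fatty acid chains from it, elongate and desaturate these, and join them to glycerol. ChREBP, the product of Mlxipl, is a transcription factor that responds to glucose metabolites and acts on genes of this route through E-box-like motifs.

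Of the markers of the labelled tissue, 22 of 24 were matched to probe sets that passed the filter, those of luminal and basal epithelium, adipocytes and fibroblasts included; the other 2 were not analysed here. Markers of other tissues were read as lists over arrays. The mean log2 ratio of the skeletal muscle list lay between -0.28 and -0.12 on the 4wk arrays, inside the range of -0.39 to 0.35 on the others. The lymphocyte list differed more between 4wk pools, at 0.39, -1.07 and 0.00 on A, B and C. So did the skin keratinocyte list, at 0.36, 0.45 and -0.35, against -0.73 to 0.17 on the others. The erythroid list was 0.21, 0.29 and 0.17 on the 4wk arrays, against -0.62 to 0.2 on the others. The brown adipocyte list lay between 0.85 and 1.24 at 4wk, near its range of 1.09 to 1.52 at 3wk and above the later ages, which ran from -0.92 to -0.07. The luminal list ran the other way, from -1.18 to -0.68 at 4wk, -1.86 to -1.39 at 3wk and 0.25 to 0.80 later. The part of these cell types in the peaks and troughs was not tested.

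The comparison called 271 of 16898 one-gene probe sets (1.6%) at an adjusted p under 0.05 (limma, two-sided, Benjamini-Hochberg over all 18480 probe sets fitted): 144 were higher (0.852%) and 127 lower (0.752%) at 4wk. A called gene was taken as a peak where its 4wk mean was the highest of the 5 ages, and as a trough where it was the lowest. That left 119 peaks (0.704%) in 111 genes and 66 troughs (0.391%) in 65 genes. For 57 of the peaks all 3 4wk arrays lay above the other 11, as they did for 1.13% of all one-gene probe sets, and for 25 of the troughs all lay below (0.379%). Of the other 25 called higher, 23 had their highest mean at 3wk and 2 at 7wk, and all 61 others called lower had their lowest mean at 3wk. Over all one-gene probe sets, whether called or not, 17.9% had their highest mean at 4wk and 16.7% their lowest.

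The peaks and troughs set 4wk off most clearly from 6wk and least from 3wk. Among the 119 peaks, 111 were also called higher in the direct comparison with 6wk (3.93% of all one-gene probe sets were), 45 with 7wk (1.33%), 37 with 5wk (0.438%) and 3 with 3wk (0.136%). Among the 66 troughs, 59 were called lower than at 6wk (4.25%), 48 than at 7wk (1.85%), 17 than at 5wk (0.32%) and 0 than at 3wk (0.0178%). At an unadjusted p under 0.05 in the same limma fit, 63 peaks and 26 troughs differed from 3wk. Of all 18480 probe sets fitted, 1898 did, in either direction. The median log2 difference of the peaks was 0.39 to 3wk, 0.77 to 5wk, 1.03 to 6wk and 0.62 to 7wk, and of the troughs -0.32, -1.09, -1.16 and -1.16. The 4 comparisons share the 4wk arrays, and their mean is the comparison that chose the peaks and troughs. That choice fixes the direction of these differences and raises the counts above the shares over all probe sets. After adjustment 0 peaks and 0 troughs were called by limma against each of the 4 other ages, and 67 one-gene probe sets were higher and 43 lower at an unadjusted p under 0.05 in all 4. The next highest age was 3wk for 74 peaks and 7wk for 33, and 3wk was next lowest for 52 troughs.

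**Figure D1:**
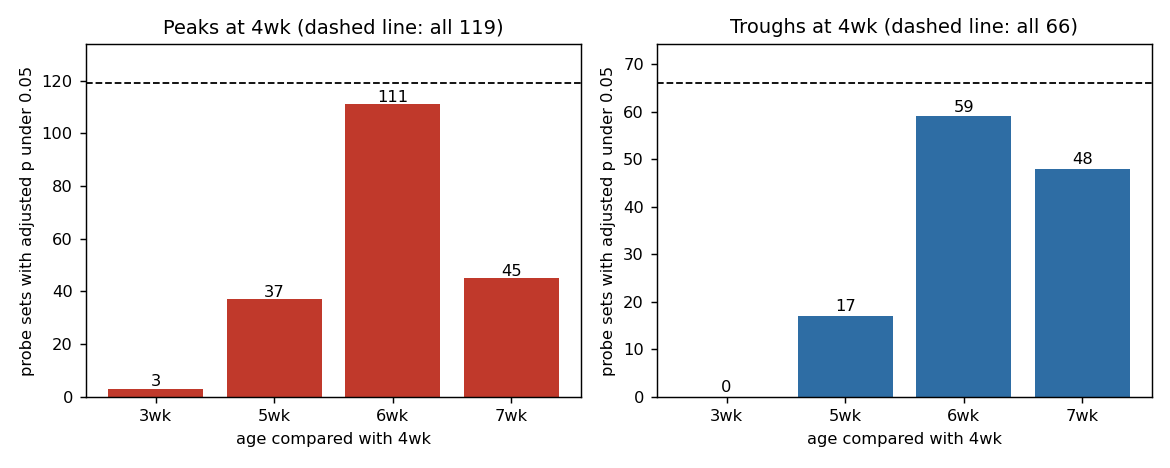
Bars give how many of the 119 peaks (left) and 66 troughs (right) had an adjusted p under 0.05 when 4wk was compared with each other age alone; the horizontal axis is that age, and the dashed line marks all members. Bars for 6wk are the tallest (111 and 59) and those for 3wk the shortest (3 and 0).

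The counts moved with the arrays in the fit. None of the 28 genes named for the largest differences changed direction in the alternatives run. They were chosen for no overlap, which fixes their direction wherever arrays or ages are left out. Of the 28, 3 kept their call without the 6wk arrays. Without the 6wk arrays 2 peaks, Lgals12 and Stom, and 5 troughs, Vegfc, Mycl, Csn1s2a, Acot1 and Mfsd4a, were left, and all 7 had been called with those arrays. Peaks and troughs numbered 13 and 19 without 4wk A, 10 and 10 without 4wk B, 17 and 37 without 4wk C, 53 and 31 without 5wk A, 31 and 19 without 5wk B, 67 and 46 without 3wk B, 40 and 36 without 3wk C, 62 and 40 without 7wk A, 37 and 34 without 7wk B, and 45 and 32 without 7wk C. Without 3wk A there were 113 troughs, and without 6wk C 36.

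Array controls moved with age too. The log2 ratio of 5' to 3' actin probe sets, a sign of RNA integrity, averaged 0.203 ± 0.096 (SD, n = 3) at 4wk, the highest of the 5 ages, and -0.445 ± 0.354 (SD, n = 3) at 6wk, the lowest. The same ratio for pyruvate carboxylase, measured on control probe sets, averaged 0.326 ± 0.213 at 4wk, -2.368 ± 0.499 at 6wk and 0.818 ± 0.076 at 7wk (SD, n = 3 each). The 18 hybridisation controls averaged 0.696 ± 0.545 at 4wk, the highest, and -1.208 ± 0.576 at 7wk, the lowest. With the actin ratio as a covariate 16 peaks and 8 troughs were called, and with the hybridisation controls 2 and 3. With the pyruvate carboxylase ratio limma called 0 of either, at a lowest adjusted p of 0.0543, while 1892 one-gene probe sets had an unadjusted p under 0.05. Without 6wk A and B, the 6wk arrays with the lowest actin ratio, 95 peaks and 39 troughs were called.

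Acaca, which makes malonyl-CoA in the cytosol and thereby commits acetyl-CoA to fatty acid synthesis, was the fat synthesis gene with the largest peak. Its ratios were 1.97, 2.10 and 2.57 on the 4wk arrays A, B and C, against 0.99, 0.619 and 1.01 at 3wk, 0.425 and 0.855 at 5wk, 0.209, 0.265 and 0.243 at 6wk, and 1.42, 1.54 and 1.56 at 7wk. All 3 4wk arrays lay above the other 11, 7wk came next and 6wk was lowest. The log2 difference to the mean of the other ages was 1.75 (SE 0.21, limma adjusted p = 0.00556); the differences to single ages were 3.21 to 6wk (adjusted p = 0.000151), 1.87 to 5wk (0.0198), 1.37 to 3wk (0.0776) and 0.55 to 7wk (0.295). Without the 6wk arrays the difference was 1.26 (adjusted p = 0.0902).

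Its mitochondrial-surface counterpart Acacb, whose malonyl-CoA restrains fatty acid import into mitochondria, had a smaller peak. Its 4wk ratios were 1.35, 1.48 and 1.41, those at 3wk 1.21, 0.977 and 1.03, and those of the later ages lay between 0.618 and 1.05. The 4wk arrays again stood above all others, by a log2 difference of 0.64 (SE 0.13, limma adjusted p = 0.0412).

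The list of fatty acid and triglyceride synthesis genes holds 24 genes, of which 22 were tested; for lists a gene is the mean of the log2 ratios of its probe sets. Of the 22, limma called 6 higher and 0 lower, against 0.74% and 0.89% of all 10671 genes. At an unadjusted p under 0.05, 16 were higher and 0 lower, against 1433 and 1369 of the 16898 one-gene probe sets. The median log2 difference of the 22 was 0.49, against -0.01 over all genes, and 21 lay above 0. The mean was highest at 4wk for 17, against 17.5% of all genes. The list mean of log2 ratios was 0.31, 0.28 and 0.41 on the 4wk arrays and at most 0.09 on any other; 7wk came next, from 0.01 to 0.09, and 6wk was lowest, from -0.44 to -0.24. Against 6wk 10 of the 22 were called higher (3.33% of all genes), against 3wk 2 (0.169%), and against 5wk and 7wk 1 each (0.375% and 1.44%). Without one array the count of 6 became 1 (4wk A or 4wk B), 2 (4wk C, 5wk A, 5wk B or 7wk B) or 3 (3wk C or 7wk C), and without the 6wk arrays it was 0.

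Along the pathway, the called members were spread from supply to assembly. Dlat, a subunit of the pyruvate dehydrogenase complex that makes acetyl-CoA in mitochondria, rose by 0.60 (SE 0.12, limma adjusted p = 0.0369) as a gene value, with 2 of its 3 probe sets called (0.87 and 0.65). The higher of these read 1.58, 1.71 and 1.90 at 4wk, and at most 1.19 on the other 11 arrays. Its partner Pdha1 had 1 called probe set (0.56, adjusted p = 0.0495), and its gene value of 0.44 missed the threshold (adjusted p = 0.0503). Cytosolic citrate cleavage (Acly) differed by 0.49 (SE 0.13, adjusted p = 0.0853) and missed the threshold, although 1 of its 3 probe sets, at 0.80, passed it. Malic enzyme Me1, a source of NADPH, rose by 0.53 (SE 0.11, adjusted p = 0.0437). Fasn, the synthase itself, had 4wk ratios of 1.24, 1.17 and 1.25, above all 11 other arrays, whose highest was 1.10; its difference of 0.34 (SE 0.09) had an adjusted p of 0.101. Dlat, Pdha1, Acly, Me1 and Fasn were named after their values were seen.

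Among the desaturases, which put a double bond into saturated chains, Scd2 rose by 0.73 (SE 0.10, limma adjusted p = 0.00908). Its gene values were 1.54, 1.34 and 1.32 at 4wk, 0.787, 0.755 and 0.898 at 3wk, 1.02 and 0.813 at 5wk, 0.495, 0.49 and 0.508 at 6wk, and 1.30, 1.34 and 1.47 at 7wk. The 4wk and 7wk arrays overlapped, and both stood above the rest. Scd2 was 0.79 higher than at 3wk (adjusted p = 0.0359) and 0.03 higher than at 7wk (adjusted p = 0.928). A Scd1 probe set was 1 of the 3 peaks also called against 3wk, by 1.06 (adjusted p = 0.0311), and differed from 7wk by 0.01 (adjusted p = 0.985). The other 2 were Atp8a1, a phospholipid flippase (1.53, adjusted p = 0.0171), and Slc38a10, of an amino acid transporter family (0.93, adjusted p = 0.0244). The elongase Elovl6 was 2.11 higher at 4wk than at 3wk (adjusted p = 0.00628) while its differences to 5wk, 6wk and 7wk, 0.33, 0.38 and 0.01, were not called (adjusted p = 0.562, 0.32 and 0.99).

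At the assembly end, Gpam, which adds the first acyl chain to glycerol phosphate, rose by 0.56 (SE 0.11, limma adjusted p = 0.0339) and Dgat2, which adds the last, by 0.56 (SE 0.10, adjusted p = 0.0247). A Dgat2 probe set with a difference of 0.70 had ratios of 1.52, 1.47 and 1.61 at 4wk, 0.912, 1.06 and 1.12 at 3wk, 0.971 and 1.03 at 5wk, 0.76, 0.898 and 0.68 at 6wk, and 0.882, 0.96 and 1.17 at 7wk. The 4wk arrays lay above the other 11. Gpam overlapped with 3wk, where its mean was 0.14 lower (adjusted p = 0.745). Mlxipl, the regulator, had ratios of 1.62, 1.28 and 1.26 at 4wk, between 0.626 and 1.03 at 3wk to 6wk, and 1.10, 1.18 and 1.31 at 7wk; it rose by 0.62 (SE 0.12, adjusted p = 0.0299) and overlapped with 7wk. Srebf1, the other well-known regulator of the route, differed by 0.30 (SE 0.15, adjusted p = 0.34). Gpam, Scd1, Elovl6 and Srebf1 were chosen after their values were seen.

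**Figure D2:**
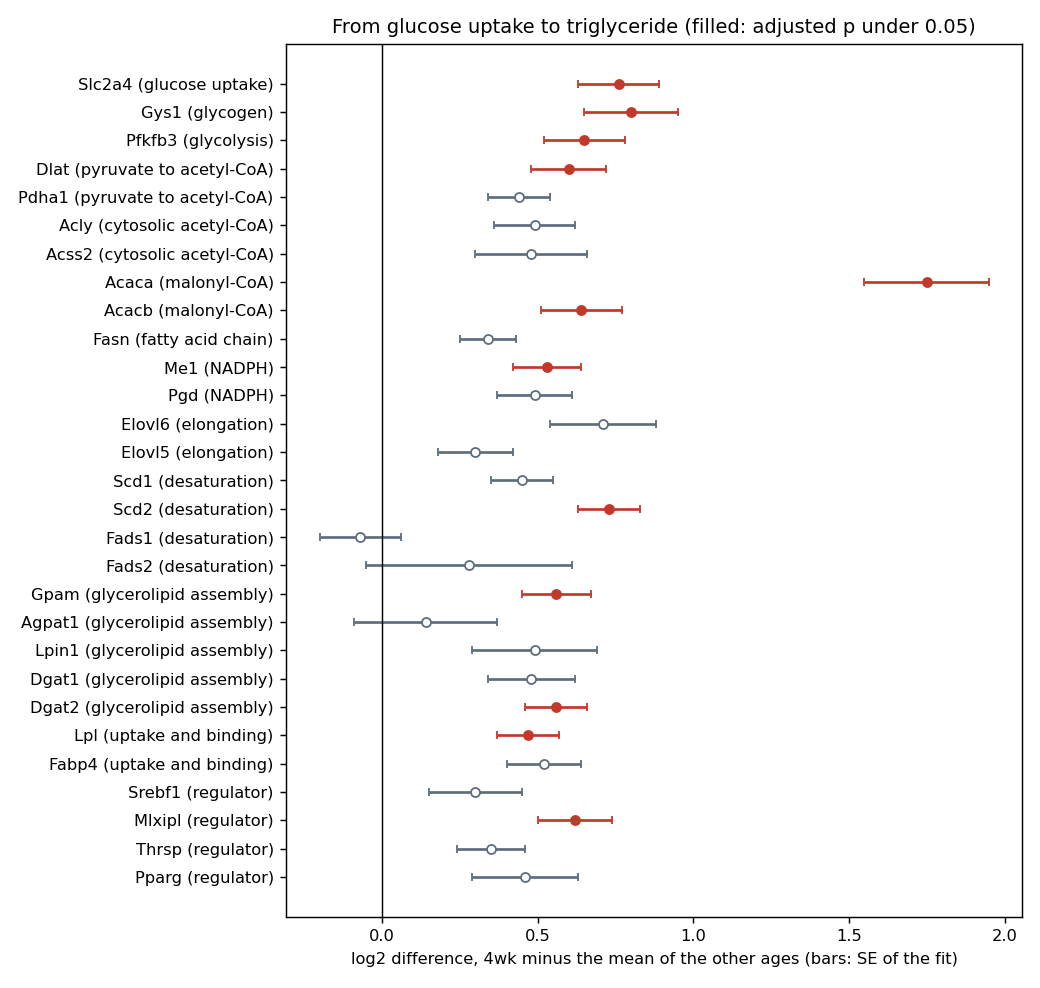
Points give the log2 difference of 4wk to the mean of the other ages for genes from glucose uptake to triglyceride, ordered by step (gene values; bars are the SE of the fit), with filled points at an adjusted p under 0.05. Acaca stands at 1.75, Gys1 comes next at 0.80, Srebf1 lies at 0.30 and Fads1 at -0.07; the genes were chosen for their roles with the values known.

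Promoter windows are shown for Acaca, the lead gene, and for Mlxipl, Acacb and Gpam, the last 3 chosen among the called members with an entry in the RefSeq table because these windows hold a match, with CACGTG E-boxes, CCAAT boxes and GGGCGG GC boxes in capitals on either strand (GRCm38.p6; 250 bases before the start to 50 after it, 5′ to 3′ on the gene's strand).
Acaca, chr11:84195188-84195487, plus strand: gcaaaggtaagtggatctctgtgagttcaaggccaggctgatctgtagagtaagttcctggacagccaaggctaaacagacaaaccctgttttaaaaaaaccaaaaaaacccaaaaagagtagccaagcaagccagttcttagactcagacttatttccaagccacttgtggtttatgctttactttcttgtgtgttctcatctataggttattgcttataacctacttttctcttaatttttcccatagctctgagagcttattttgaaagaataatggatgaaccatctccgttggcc
Mlxipl, chr5:135089640-135089939, plus strand: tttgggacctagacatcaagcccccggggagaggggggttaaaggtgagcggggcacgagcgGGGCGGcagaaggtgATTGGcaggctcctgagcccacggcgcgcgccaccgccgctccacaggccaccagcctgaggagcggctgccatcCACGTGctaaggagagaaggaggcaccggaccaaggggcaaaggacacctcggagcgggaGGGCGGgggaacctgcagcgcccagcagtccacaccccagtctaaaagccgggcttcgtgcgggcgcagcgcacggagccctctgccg
Acacb, chr5:114165268-114165567, plus strand: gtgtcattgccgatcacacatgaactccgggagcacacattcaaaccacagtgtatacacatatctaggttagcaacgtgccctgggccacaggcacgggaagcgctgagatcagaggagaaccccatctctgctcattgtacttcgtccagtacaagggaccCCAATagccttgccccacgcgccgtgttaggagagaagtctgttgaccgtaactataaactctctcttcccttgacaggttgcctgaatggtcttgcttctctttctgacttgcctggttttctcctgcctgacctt
Gpam, chr19:55127189-55127488, minus strand: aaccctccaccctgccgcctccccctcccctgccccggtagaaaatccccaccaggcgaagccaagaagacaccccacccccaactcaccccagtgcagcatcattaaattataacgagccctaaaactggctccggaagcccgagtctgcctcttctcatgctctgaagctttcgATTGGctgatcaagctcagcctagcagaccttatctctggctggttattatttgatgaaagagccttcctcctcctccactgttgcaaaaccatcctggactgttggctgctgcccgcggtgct
Of the 10 called members of the fat synthesis and adipocyte lists, 5 had entries, Me1 being the other, with 8 windows in all. The Acaca window held none of the 4 motifs searched. CACGTG was in 1 of the 8, the Mlxipl window above, at -98 from the start, and in 7.15% of all 32851 promoter windows. CCAAT, read on both strands, was in 4 of the 8 and 37.4% of all, at -87 for Acacb, -74 for Gpam and -173 for Mlxipl. GGGCGG was in 3 of the 8 and 35.7% of all, and the sterol element TCACNCCAC in 1 of the 8, a second Mlxipl window, and 1.24% of all. These are letter matches only, and the motifs do not overlap one another in the windows printed.

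Glucose handling split between its transporters. Slc2a4, the insulin-regulated transporter of fat and muscle, had ratios of 1.51, 1.30 and 1.53 at 4wk, 1.27, 0.939 and 0.858 at 3wk, 0.685 and 0.645 at 5wk, 0.284, 0.511 and 0.485 at 6wk, and 1.06, 1.07 and 1.21 at 7wk. All 3 4wk arrays were above the rest, with a log2 difference of 0.96 (SE 0.18, limma adjusted p = 0.0301). Of single ages, the difference to 6wk was called (1.81, adjusted p = 0.00119). Those to 5wk (1.12, adjusted p = 0.063), 3wk (0.52, 0.458) and 7wk (0.38, 0.418) were not. Without the 6wk arrays the difference was 0.67 (limma adjusted p = 0.124). The second Slc2a4 probe set differed by 0.56 (adjusted p = 0.0582). Slc2a1, the transporter of basal glucose uptake in most cells, went the other way: on one probe set its ratios were 0.626, 0.685 and 0.714 at 4wk, between 0.852 and 0.943 at 3wk, and between 0.90 and 1.34 at the later ages. The 4wk arrays were the 3 lowest, by a log2 difference of -0.69 (SE 0.11, adjusted p = 0.0199), and the other 2 probe sets differed by -0.94 (adjusted p = 0.0286) and -0.92 (adjusted p = 0.132). On the first, limma called the differences to 6wk and 7wk, both -0.86 (adjusted p = 0.00485 and 0.0102). Those to 3wk (-0.42, adjusted p = 0.312) and 5wk (-0.61, 0.0987) were not called.

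Of the 20 tested genes of glycolysis and glucose handling, 3 were called higher and 1 lower, the last being Slc2a1, against 0.74% and 0.89% of all genes; the list median was 0.28. Beside Slc2a4 these were glycogen synthase Gys1, up 0.80 (SE 0.15, limma adjusted p = 0.0277), and Pfkfb3, whose product makes the activator of phosphofructokinase, up 0.65 (SE 0.13, adjusted p = 0.0353). As gene values both overlapped with other ages. Gys1 overlapped with 3wk, where its mean was 0.16 lower (limma adjusted p = 0.805). Pfkfb3 overlapped with 3wk (0.38 lower, adjusted p = 0.409) and 7wk (0.46 lower, adjusted p = 0.139). Ppp1r3f, a subunit that targets protein phosphatase to glycogen, also had a peak, with ratios of 1.54, 1.78 and 2.47 at 4wk and 1.34 as the highest elsewhere (difference 1.15, SE 0.24, adjusted p = 0.0443).

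Genes of the general adipocyte list, which shares Slc2a4 and Dgat2 with the route above, also lay higher at 4wk than the mean of the other ages. All 20 tested were above 0, and limma called 4 higher and 0 lower, against 0.74% and 0.89% of all genes. The 4 were Cidea (1.21), Slc2a4 (0.76), Dgat2 (0.56) and Lpl (0.47), the lipase that frees fatty acids from lipoproteins. At an unadjusted p under 0.05, 15 were higher and 0 lower, against 1433 and 1369 of the 16898 one-gene probe sets. The list median was 0.44, against -0.01 over all genes, and 13 of the 20 had their highest mean at 4wk, against 17.5%. The median difference was 0.03 to 3wk, 0.43 to 5wk, and 0.42 to 6wk and to 7wk. Called higher in limma were 0 against 3wk (0.169% of all genes), 0 against 5wk (0.375%), 8 against 6wk (3.33%) and 6 against 7wk (1.44%). Lpl overlapped with 3wk, where its mean was 0.20 lower (limma adjusted p = 0.623). Of the members not called, the fatty acid binding protein gene Fabp4 differed by 0.52 (SE 0.12, adjusted p = 0.0563) and Pparg, the master regulator of fat cell formation, by 0.46 (SE 0.17, adjusted p = 0.191). The smallest differences lay near 0: Adipoq, the adipokine adiponectin, differed by 0.10 (SE 0.08, adjusted p = 0.615), Cd36, a fatty acid receptor, by 0.04 (SE 0.09, adjusted p = 0.851), and Lep, leptin, by 0.01 (SE 0.19, adjusted p = 0.985). The last 5 were named after their values were seen. Beyond the list, both probe sets of Fabp5, of the same family as Fabp4, had peaks (0.77 and 0.61), with all 3 4wk arrays above the other 11 on each. The list mean of log2 ratios lay between 0.23 and 0.33 at 4wk, between 0.08 and 0.18 at 3wk and between -0.34 and -0.11 later. Without one array the 4 calls became 0 (4wk A, 4wk B, 5wk A or 5wk B), 1 (4wk C) or 2 (3wk B, 3wk C, 6wk C, 7wk A, 7wk B or 7wk C), and without the 6wk arrays 0.

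Lgals12, a galectin of adipocyte lipid droplets, had the smallest adjusted p among the peaks that did not overlap with other ages. Its ratios were 1.79, 1.68 and 1.79 at 4wk, 1.34, 1.47 and 1.31 at 3wk, 0.736 and 0.724 at 5wk, 0.663, 0.732 and 0.857 at 6wk, and 1.01, 0.935 and 0.992 at 7wk. On this probe set the order was 4wk, then 3wk, then the later ages. The log2 difference was 0.92 (SE 0.10, limma adjusted p = 0.00214), and 0.82 without the 6wk arrays (adjusted p = 0.0186). It was 0.35 to 3wk (adjusted p = 0.324), and with the hybridisation controls as a covariate 0.89 (adjusted p = 0.0861). A second Lgals12 probe set differed by 0.54 (limma adjusted p = 0.143) and had no peak. Its difference to 3wk was -0.08, and its 4wk arrays overlapped with the others.

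The brown adipocyte genes were high at 4wk and at 3wk alike. All 12 tested lay above 0, with a median of 0.95, and 5 were called higher and 0 lower, against 0.74% and 0.89% of all genes, while 3 of the 12 had their highest mean at 4wk, against 17.5%. Ucp1, the uncoupling protein of brown and beige fat, had ratios of 2.63, 5.58 and 3.96 at 4wk and 5.06, 3.10 and 2.05 at 3wk, against 0.167 to 1.01 from 5wk on. The ranges of 3wk and 4wk overlapped and both lay above all later arrays; the difference to the mean of the other ages was 2.15 (SE 0.46, limma adjusted p = 0.0452), and to 3wk 0.28 (adjusted p = 0.915). Ppara, a receptor that turns on fatty acid oxidation, had the largest difference on the list, 2.90 (adjusted p = 0.00115), and was highest at 3wk (4wk minus 3wk was -0.26, adjusted p = 0.824). Mitochondrial genes were likewise high at both ages: among respiratory chain and citric acid cycle genes all 37 tested lay above 0 (median 0.35), 5 were called higher and 0 lower, and 9 had their highest mean at 4wk, against the same shares. Their list mean ran from 0.26 to 0.44 at 4wk, from 0.32 to 0.53 at 3wk and from -0.29 to -0.05 later. Without the 6wk arrays 2 brown adipocyte and 0 mitochondrial genes were called; without one 4wk array (A, B, C) these counts were 3, 1 and 2 and 0, 0 and 0, and without one 5wk array (A, B) 2 and 2 and 2 and 1. They were 3 and 3 without 3wk B, 3wk C or 7wk B, 4 and 3 without 7wk A or 7wk C, 3 and 4 without 6wk C, and 5 and 8 without 6wk B. Among the 5 mitochondrial genes were Ogdh (0.56) and Uqcrfs1 (0.56), a citric acid cycle and a complex III component, which were highest at 4wk. Of the 23 fatty acid oxidation genes 4 were called higher, with Ehhadh (0.86) highest at 4wk, and 1, the acyl-CoA thioesterase Acot1 (-1.99), lower.

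Kcnk3, a two-pore potassium channel gene, had the largest peak among genes that overlapped with other ages. Its ratios were 2.04, 1.28 and 1.66 at 4wk, 1.04, 1.19 and 1.26 at 3wk, 0.148 and 0.0967 at 5wk, 0.0243, 0.0695 and 0.0753 at 6wk, and 0.957, 0.611 and 1.29 at 7wk, so the low ages were 5wk and 6wk (difference 2.53, SE 0.33, limma adjusted p = 0.00726; its other 2 probe sets, at 1.78 and 1.05, were not called). Of the catalytic subunits of protein kinase A, the cyclic AMP-dependent kinase that in adipocytes promotes fat breakdown, Prkaca had 1.49, 1.49 and 1.41 at 4wk and at most 1.15 on any other array (0.72, SE 0.09, adjusted p = 0.00726), and Prkacb differed by 0.70 (SE 0.14, adjusted p = 0.0418) on 1 probe set and 0.15 on its other. The transferrin receptor Tfrc differed by 1.44 (adjusted p = 0.0226) on 1 of 3 probe sets and stood 0.08 above 3wk. These 4 genes were named after their values were seen.

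Single genes of small vessels and of the basement membrane, the sheet on which vessels, adipocytes and ducts rest, also had peaks. Cspg4, which codes for the NG2 proteoglycan of pericytes, was called on both probe sets. On one, its ratios were 1.61, 1.78 and 1.75 at 4wk, 1.37, 1.08 and 0.949 at 3wk, 0.987 and 0.78 at 5wk, 0.361, 0.582 and 0.562 at 6wk, and 1.08, 0.91 and 1.01 at 7wk (log2 difference 1.04, SE 0.16, limma adjusted p = 0.0168). Vegfa, the growth factor of blood vessels, had 1.69, 1.68 and 1.45 at 4wk, 1.30, 1.04 and 1.22 at 3wk, and between 0.599 and 1.19 later. For both genes the 4wk arrays lay above the other 11. Vegfa differed by 0.84 (SE 0.13, adjusted p = 0.0188) on this probe set and by 0.24 (adjusted p = 0.451) on its other; it was named after its values were seen.

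Shares over all genes, for the lists that follow, were 0.74% called higher, 0.89% called lower and 17.5% highest at 4wk. At an unadjusted p under 0.05 in limma, 1433 of the 16898 one-gene probe sets were higher and 1369 lower. Of 22 endothelial genes tested, 1 was called higher, the junction cadherin Cdh5 (1.16, SE 0.25, limma adjusted p = 0.0458), and 0 lower, while 14 had their highest mean at 4wk and the median was 0.30. Of 18 basement membrane genes, 2 were called higher, perlecan Hspg2 (0.73) and the collagen chain Col4a1 (0.54), and 0 lower; 9 had their highest mean at 4wk and the median was 0.32. Of 31 fibrillar matrix genes limma called 0 (7 higher and 2 lower at an unadjusted p under 0.05), 21 lay above 0, 9 had their highest mean at 4wk and the median was 0.11; differences between these lists were not tested.

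The 2 largest peaks with no overlap, Fscn1 and Cpz, were on none of the lists. Fscn1, coding for the actin-bundling protein fascin, had ratios of 3.41, 3.06 and 2.88 at 4wk, 0.367, 0.653 and 1.94 at 3wk, 0.254 and 1.32 at 5wk, 0.0528, 0.0735 and 0.0688 at 6wk, and 1.26, 0.817 and 1.18 at 7wk. Its log2 difference of 2.89 (SE 0.49, limma adjusted p = 0.0226) was made up of 5.59 to 6wk, 2.42 to 5wk, 2.0 to 3wk and 1.54 to 7wk. A second probe set gave 1.51 (adjusted p = 0.0141), and the other 2 gave 0.64 (adjusted p = 0.082) and 0.22 (adjusted p = 0.619). Cpz, a secreted carboxypeptidase with a frizzled-like domain, had 3.38, 4.80 and 5.40 at 4wk, 2.44, 1.29 and 3.26 at 3wk, and 0.242 to 0.712 later except for 2.19 on 6wk A. It differed by 2.66 (SE 0.49, adjusted p = 0.0298). In both, 4wk lay above all other arrays, while arrays of the same age at 3wk or 6wk lay far apart.

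Stom, the membrane protein stomatin, was called on 2 of its 6 probe sets, all 6 of which differed upwards (0.22 to 0.98). On the higher one its ratios were 1.44, 1.43 and 1.55 at 4wk, 1.01, 0.951 and 0.985 at 3wk, 0.636 and 0.542 at 5wk, 0.411, 0.449 and 0.649 at 6wk, and 1.08, 1.14 and 1.06 at 7wk. All 3 4wk arrays stood above the other 11 (0.98, SE 0.13, limma adjusted p = 0.00726; 0.78 without the 6wk arrays, adjusted p = 0.0292). The other named peaks were 1700037H04Rik (1.23), Kank2, of a family tied to cell adhesions (1.06), the potassium channel Kcnk2 (0.98), Nrarp, a feedback inhibitor of Notch signalling (0.94), the mitochondrial carrier Slc25a35 (0.91) and Carhsp1, an RNA-binding protein (0.89), with adjusted p between 0.00702 and 0.0465. Nrarp and Carhsp1 each have a second probe set that differed by 0.20 and 0.19 and was not called. That of 1700037H04Rik differed by 0.53 and was not called either. Over all 111 peak genes, 136 of 153 further probe sets differed upwards, as did 5212 of all 10671 genes. These probe sets were read on the same arrays that chose the genes.

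**Figure D3:**
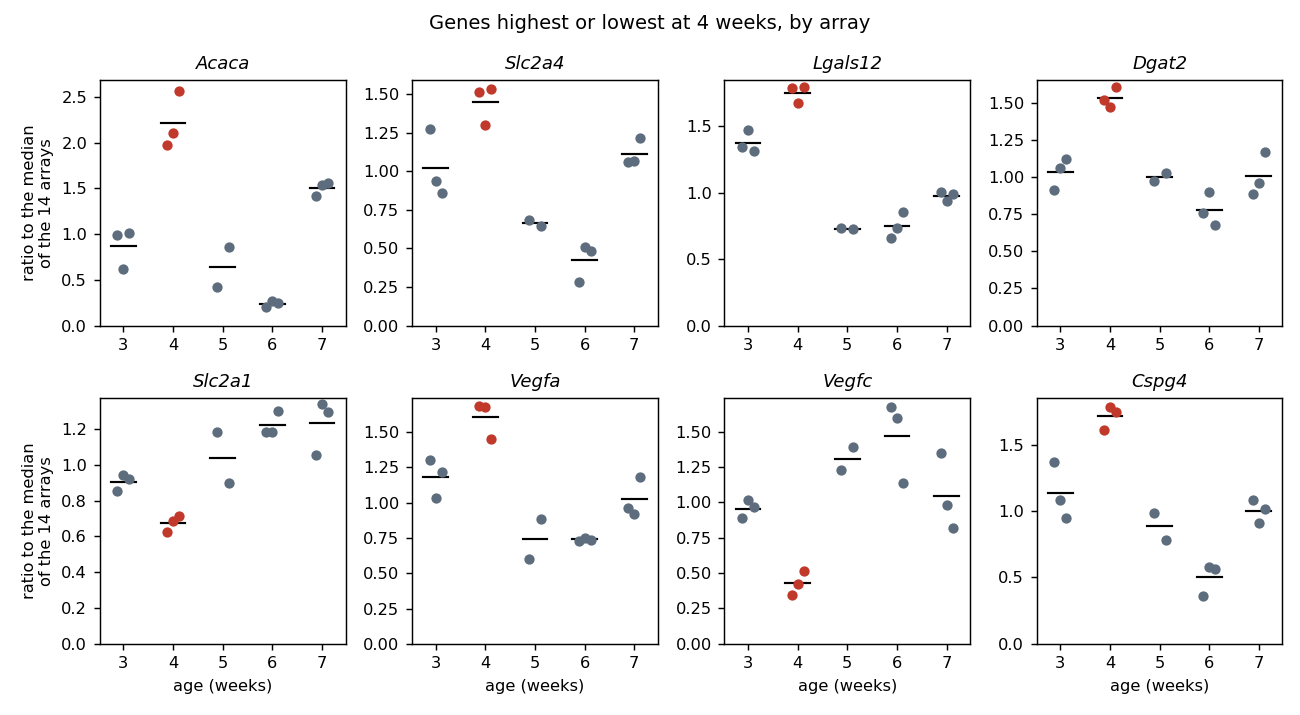
Each panel plots the ratio to the median of the 14 arrays (vertical axis) against age in weeks for a probe set; points are arrays, bars are group means and the 4wk arrays are red. In Acaca, Slc2a4, Lgals12, Dgat2, Vegfa and Cspg4 the 3 4wk points lie above the other 11, and in Slc2a1 and Vegfc below them.

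Among the troughs, Vegfc, the growth factor of lymphatic vessels, had the smallest adjusted p among those with no overlap. Its ratios were 0.347, 0.422 and 0.515 at 4wk, 0.888, 1.02 and 0.966 at 3wk, 1.23 and 1.39 at 5wk, 1.67, 1.59 and 1.14 at 6wk, and 1.35, 0.984 and 0.816 at 7wk. The highest 4wk array was below the lowest of the other 11. The log2 difference was -1.47 (SE 0.17, limma adjusted p = 0.00556), with -1.18 to 3wk (adjusted p = 0.0776), -1.63 to 5wk (0.0178), -1.78 to 6wk (0.00119) and -1.28 to 7wk (0.0123). Vegfc was thus called lower than at each later age and not against 3wk, and it lay at the opposite end from Vegfa at 4wk. Its signal was low: Vegfc passed the filter on level, which asks for 200 of the steps in which signals were recorded, and not the same filter at 300.

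Nkd1 and Dkk3, of families that restrain Wnt signalling, had troughs too. Nkd1 had ratios of 0.496, 0.407 and 0.412 at 4wk and between 0.749 and 2.05 elsewhere; it differed by -1.35 (SE 0.24, limma adjusted p = 0.0279). Dkk3 had 0.611, 0.491 and 0.579 at 4wk, 0.955, 0.756 and 0.717 at 3wk and 0.76 to 1.34 later, with a difference of -0.89 (SE 0.14, adjusted p = 0.0168) on this probe set and -0.40 (adjusted p = 0.699) on its other. In both the 4wk arrays were the 3 lowest. Nkd1, like Pcdhb5 below, had a low signal and did not pass the filter at 300 steps.

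Ecrg4, which codes for a secreted precursor, had 0.448, 0.549 and 0.419 at 4wk, 0.775, 0.951 and 0.615 at 3wk and 0.93 to 1.99 later (difference -1.37, SE 0.24, limma adjusted p = 0.0255). It was lowest at 4wk, with 3wk next. The remaining named troughs were the actin-associated Pdlim1 (-1.88), the protocadherin Pcdhb5 (-1.63), the chloride channel Pacc1 (-1.52), the methyltransferase Mettl18 (-1.40), the mitochondrial pseudouridine synthase Rpusd4 (-1.19), the glycerol and water channel Aqp9 (-1.05), the zinc finger genes Zfp62 (-1.03) and Zbtb8a (-0.99), Jpt1 (-0.93) and Txndc16 (-0.88), with adjusted p between 0.012 and 0.0488. For 5 of these the other probe sets of the gene differed little or upwards: -0.13 for Pdlim1, 0.00 and -0.09 for Pacc1, 0.41 for Aqp9, 0.28 for Zfp62, and -0.25 and -0.07 for Jpt1, none of them called. Over all 65 trough genes 35 of 44 further probe sets differed downwards, while 5212 of all 10671 genes differed upwards. These probe sets too were read on the same arrays that chose the genes.

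**Figure D4:**
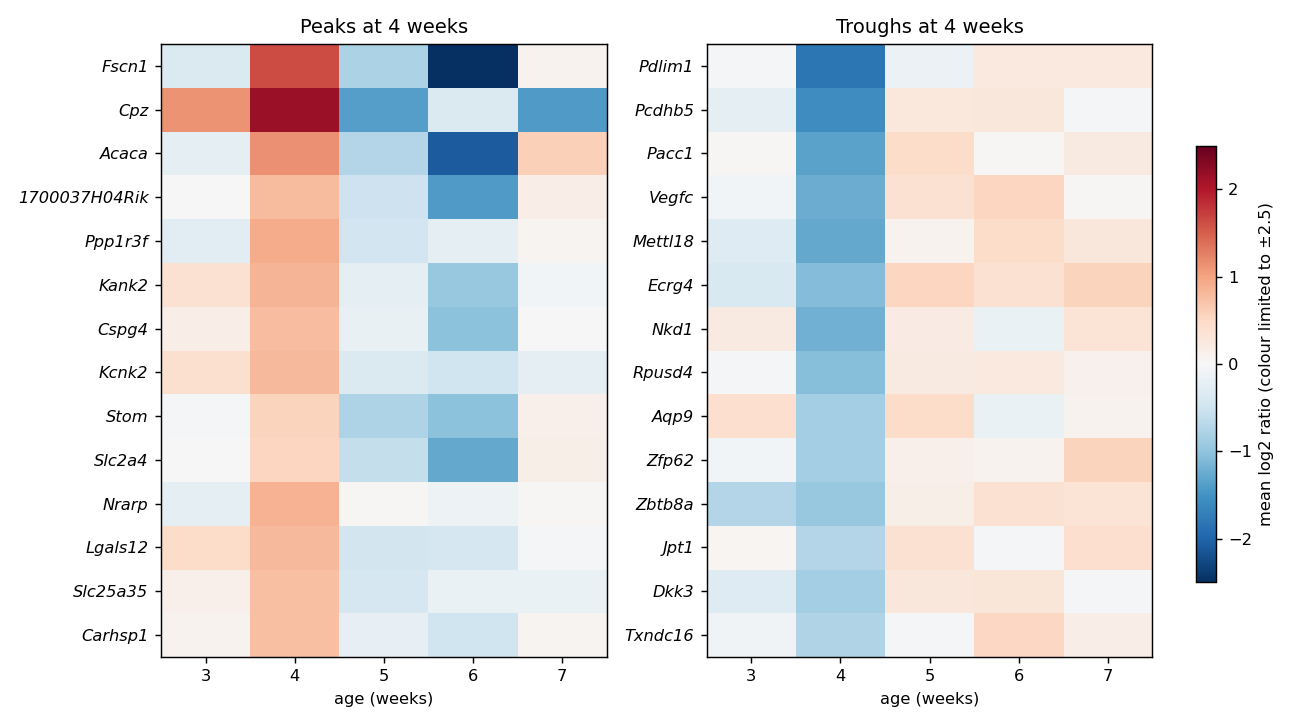
Cells give the mean log2 ratio of the 14 named peaks (left) and 14 named troughs (right) at each age in weeks, red above and blue below the median of the 14 arrays, with colour limited to 2.5 in each direction. Columns at 4wk hold the highest mean of every peak row and the lowest of every trough row, which the choice of genes fixes, and the 6wk column is the bluest for many peaks.

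The 3 largest troughs by size, Csn1s2a, Cldn8 and Mycl, shared their low values with 3wk. The casein Csn1s2a, a milk protein, had ratios of 0.0195, 0.0351 and 0.0654 at 4wk and 0.0577, 0.0296 and 0.0436 at 3wk, against 0.909 to 16.89 later, a difference of -4.97 (SE 0.46, limma adjusted p = 0.000938). A second Csn1s2a probe set was called lower (-4.07, limma adjusted p = 0.0198) but had no trough, as it lay 0.01 above 3wk. Mycl, a MYC family transcription factor, had 0.0996, 0.0883 and 0.0976 at 4wk and 0.116, 0.143 and 0.0851 at 3wk, against 0.987 to 1.58 later (-2.83, SE 0.17, adjusted p = 6.48e-05). For both, 3wk and 4wk overlapped and lay far below the rest. The tight junction gene Cldn8 (-2.96) and Trp63, a transcription factor of basal epithelium (-0.97), were also low at both ages, 0.11 and 0.13 below 3wk on the log2 scale; Mycl, Cldn8 and Trp63 were named after their values were seen.

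The epithelial lists stood between 3wk and the later ages. All 29 luminal genes tested lay below 0, 5 were called lower and 0 higher (0.89% and 0.74% of all genes were), the median was -0.73, and 2 had their lowest mean at 4wk, against 16.7% of all genes; the median was 0.71 above 3wk and 1.42 below 6wk. Of 18 milk genes 7 were called lower and 0 higher, with a median of -0.67 and 2 lowest at 4wk. Luminal and milk calls were 0 and 2 without the 6wk arrays, 0 and 1 without 4wk A or 4wk B, 3 and 5 without 4wk C, 2 and 4 without 5wk A, 0 and 2 without 5wk B, 3 and 4 without 6wk C, 4 and 4 without 7wk A, 3 and 6 without 7wk C, and 13 and 6 without 3wk A. Of 33 cell cycle genes limma called 0. At an unadjusted p under 0.05, 1 was higher and 0 lower, against 1433 and 1369 of the 16898 one-gene probe sets. The median of the 33 was 0.12, and 5 had their highest mean at 4wk, against 17.5% of all genes.

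**Figure D5:**
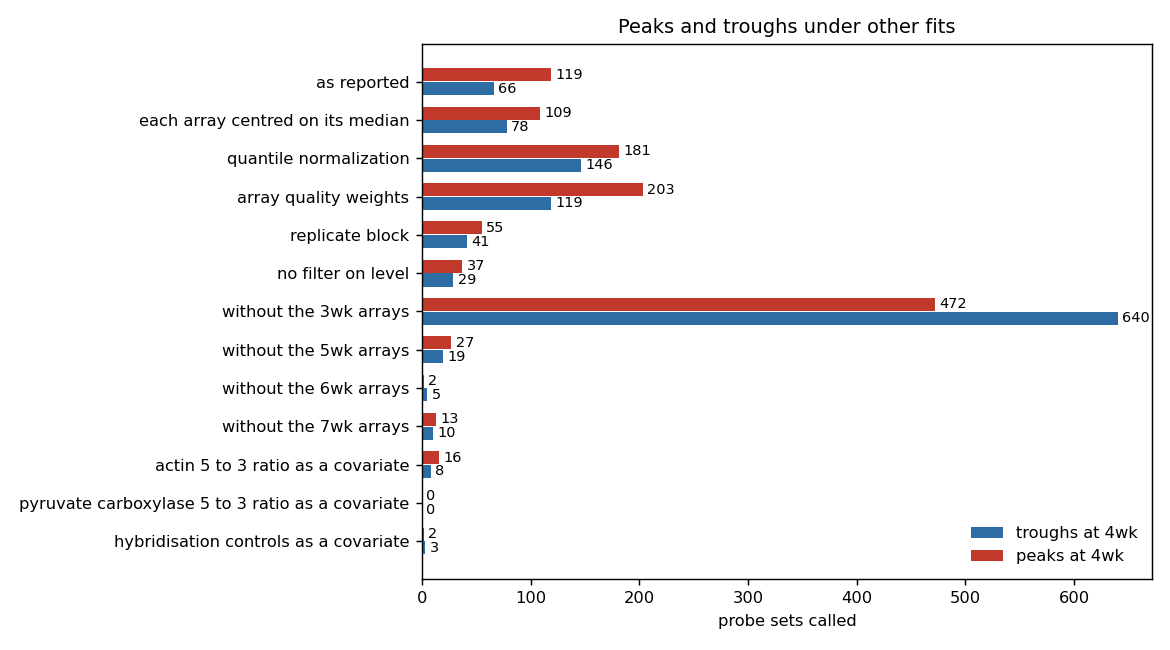
Bars give the number of one-gene probe sets with a peak (red) or trough (blue) at 4wk in the fit as reported and under other settings; the horizontal axis is a count. As reported there are 119 and 66, without the 6wk arrays 2 and 5, with the pyruvate carboxylase ratio as a covariate 0 and 0, and without the 3wk arrays 472 and 640.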

How the data were processed

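The authors deposited a table of linear ratios for 14 arrays, each hybridised per the labels' protocols with biotin-labelled RNA from a pool of glands. Tests on the values showed that each probe set had been divided by its own median (98.48% of medians are at 1 within 0.001; 337 lie below 0.98). How the signals were computed and scaled beforehand: not given in the sources used here. Ratios ran from 0.01 to 38.13 and the array medians from 0.953 to 1.017, and no further normalization was applied. They were taken to log2 without an offset. The level before division was recovered, in steps, from whole multiples in the ratios. The 64 control probe sets and 4146 with fewer than 200 steps on all arrays or all but 1 were left out, and 18480 were fitted. A planned filter at 500 steps was not run, because such levels could not be recovered in simulated data, and 300 steps was used in its place.

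Gene names follow GEO's platform annotation (1 gene for 20380 probe sets, several for 691, none for 1555; 20351 matched RefSeq of GRCm38.p6, and 0 symbols changed). Age entered a linear model as a factor (limma 3.58.1 in R 4.3.3), with empirical Bayes moderation, a contrast of 4wk against the mean of the other 4 ages and Benjamini-Hochberg adjustment at 0.05. It was tested on simulated data. Tables and plots used Python 3.11.15, pandas 2.3.3, numpy 2.4.6 and matplotlib 3.10.9. Named genes were the 14 largest called peaks and 14 largest called troughs whose 3 4wk arrays did not overlap with the other 11, 1 probe set per gene, the 3 smallest adjusted p of each, and up to 4 called members of each list described; others are said to be named after their values were seen. The members and the 28 gene lists were chosen with earlier results of these data known. Arrays of the same age served as replicates, and a p-value here speaks only to differences among pools. Alternatives were other filters, scalings, weights, covariates and left-out ages and arrays.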

Additional observations from a re-analysis of the deposited data

How the results depend on the processing

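The limits below concern counts of calls. None of the 28 genes with the largest differences and no overlap changed direction in the alternatives run. Where arrays or ages were left out, the rule of no overlap fixes that direction. Of the 28, 3 kept their call without the 6wk arrays and 3 with the actin covariate. With the hybridisation controls or the pyruvate carboxylase ratio 0 did. The alternatives were not followed gene by gene for the other genes named. Called probe sets (271: 144 higher, 127 lower), peaks (119), troughs (66), called fat synthesis genes (6) and called adipocyte genes (4) stayed within 1.5 times with an offset of 0.1, arrays centred on their medians, robust moderation or a filter at 300 steps, the last added after seeing the data. Calls in other lists moved further: the 5 mitochondrial calls became 9 at 300 steps, with quantile normalization and with array weights and 20 without 3wk, and the 5 luminal calls 8 with the offset, 14 with quantile normalization, 10 with array weights and 22 without 3wk. With no filter they were 105 (46 and 59), 37, 29, 3 and 2, of which 36 peaks and 27 troughs were among those reported. Quantile normalization gave 460 (222 and 238), 181, 146, 8 and 8, and array weights 471 (242 and 229), 203, 119, 8 and 6. In a fit with 2 groups, where differences among the 11 other arrays count as spread, limma called 0, 0, 0, 0 and 0, with 1544 at an unadjusted p under 0.05 and a lowest adjusted p of 0.0684.

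Leaving out ages gave 67 (33 and 34), 27, 19, 2 and 0 without 5wk, 14 (4 and 10), 2, 5, 0 and 0 without 6wk, 27 (15 and 12), 13, 10, 2 and 0 without 7wk, and 1122 (479 and 643), 472, 640, 5 and 9 without 3wk. The actin covariate gave 45 (21 and 24), 16, 8, 4 and 1, the hybridisation controls 10 (5 and 5), 2, 3, 0 and 0, and the pyruvate carboxylase ratio, added after seeing the data, 0, 0, 0, 0 and 0. Without 6wk A and B, also added then, there were 207 calls and 39 troughs. Gene values in place of probe sets gave 65 peaks and 52 troughs, the rule of no overlap 57 and 25, and calls against each of the 4 other ages 0 and 0. The cause of these shifts was not tested.

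With the array letter as a replicate block the counts were 152 (70 and 82), 55, 41, 2 and 2, and 17 of the 28 named genes kept their call. Deviations from the age means correlated above 0.1 in 0 of the 26 same-letter pairs (range -0.07 to 0.09). Their mean correlation was 0.02, against -0.01 for pairs of different letters. Whether arrays of the same letter shared any handling was not tested. A filter at 500 steps was not run.

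Leaving out one array at a time gave 27 (4wk B) to 360 (3wk A) calls, 11 to 169 higher and 16 to 191 lower, 10 to 144 peaks, 10 to 113 troughs, 1 to 7 fat synthesis genes and 0 to 4 adipocyte genes. Without a 5wk array the lone array left is assumed to vary like the other groups. Named genes that kept their call numbered 6, 5 and 7 of 28 without 4wk A, B and C, 18 and 9 without 5wk A and B, and 18 to 28 without any other array.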
